A study of Oryctolagus cuniculus with 9 samples.

Results

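The uroplakins and a group of regulators of the urothelium, the epithelium that lines the bladder and part of the urethra, were followed across 9 RNA libraries of rabbit urethral tissue. The group holds 10 genes, chosen by symbol out of 28788 gene rows: the uroplakins UPK1A, UPK1B, UPK2, UPK3A and UPK3B, the surface protein PSCA, and the transcription factors GATA3, PPARG, ELF3 and GRHL3. All 10 had a row in the table, and 9 passed the filter on low counts. UPK3B did not pass. The series comes from work on a layered hydrogel stent for urethral repair, and each of its codes S6, S7 and S9 has 3 libraries, named by code and number (S6_2). The labels give urethral tissue for every library but no treatment, time, age, sex or strain for any code, so no group is taken as the control. Whether each library is a separate animal is not said either, and p-values measure the spread between these libraries, which may be technical.

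Uroplakins are membrane proteins of the umbrella cells, the outermost urothelial cells, where they form crystalline plaques that seal the surface against urine. UPK1A and UPK1B are tetraspanins. UPK1A pairs with UPK2, and UPK1B pairs with UPK3A or UPK3B, before the subunits leave the endoplasmic reticulum. GATA3 and the nuclear receptor PPARG promote urothelial differentiation, the ETS factor ELF3 acts downstream of PPARG in umbrella-type maturation, and the Grainyhead factor GRHL3 serves the terminal differentiation of umbrella cells and of stratified epithelia. PSCA is a small glycolipid-anchored protein of the Ly6 family, made by urothelium, stomach and prostate.

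Total counts lay between 35127085 and 36832773 per library, so depth hardly differed. In S6_4, S7_3 and S9_4 the mitochondrial gene ATP6 lay below 100 CPM (counts scaled to library size), against 1937 CPM or more in the other 6 libraries. This split takes 1 library of each group. S6_3 stood apart from the other S6 libraries: the shortest decile of genes lay 0.45 above its mean on the log2 scale, and 15 pan-epithelial genes summed to 1756 CPM there, against 4567 and 4150 CPM in S6_2 and S6_4. Smooth muscle markers summed to 1797 to 3180 CPM in S6 and 6115 to 11870 CPM in S9. Of these markers 7 of 8 were called higher in S9 than in S6, against 6.02% of all tested genes. The part of muscle and other cell types in the results that follow was not tested. PSCA and UPK2 belong to the shortest decile of tested genes, and UPK1A and UPK3A to the next. In bulk tissue, fewer cells of a type and less RNA per cell cannot be told apart.

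Levels of different genes were compared per gene length, in the deposited FPKM (fragments scaled to gene length and library size). ELF3 was the most abundant of the group in median level, with a median of 234.7 FPKM over the 9 libraries, which placed it at the 99th percentile of all gene rows in the median library. PSCA followed with a median of 20.8 FPKM, GATA3 with 18.5, GRHL3 with 10.05 and PPARG with 7.19 FPKM. Each uroplakin had a lower median than these 5 genes. UPK2 had a median of 2.21 FPKM, UPK1B 1.77, UPK1A 0.410 and UPK3A 0.337, while UPK3B was listed at 0 in 7 of the 9 libraries.

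This order of medians did not hold in every library, and for PSCA it failed in all of S9. PSCA was at 1.025, 2.38 and 0.973 FPKM in S9_1, S9_2 and S9_4. UPK1B was above it at 6.52, 3.83 and 1.77 FPKM there, and so was UPK2 at 1.96, 3.40 and 5.16 FPKM. In S6_3 PSCA, at 273.5 FPKM, exceeded ELF3, at 187.4 FPKM. UPK1B reached 6.52 FPKM in S9_1, above GRHL3 at 3.87 and close to PPARG at 7.19 FPKM there, and UPK2 reached 5.16 FPKM in S9_4.

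General epithelial genes were present in all libraries. KRT8 and KRT19, keratins of simple and urothelial cells, had medians of 507 and 1036 FPKM, the adhesion molecule EPCAM 147.9 FPKM and KRT7 166 FPKM. KRT5, of basal cells, had a median of 62.2 FPKM, KRT13, of intermediate cells and moist squamous epithelium, 143 FPKM, and KRT4, also of moist squamous epithelium, 352 FPKM. TP63, the basal cell factor, had a median of 5.27 FPKM and FOXA1, a partner of GATA3 and PPARG in urothelium, 42.0 FPKM. KRT20, an umbrella cell marker, was not found by its symbol and is not analysed here. Genes that serve uroplakin traffic ranged widely, with medians of 0.329 FPKM for the sorting factor SNX31, 138 FPKM for MAL and 223 FPKM for VAMP8.

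The 2 tetraspanin uroplakins are given first, each with its own limits. UPK1A was at 2.30, 1.54 and 2.17 CPM in S6_2, S6_3 and S6_4, and at 0.185, 0 and 0.0794 CPM in S9_1, S9_2 and S9_4, so that the groups did not overlap. These levels rest on 217 counts over the S6 libraries and 10 over those of S9. The 3 S7 libraries were spread over the whole span, with 0.0818, 0.526 and 2.67 CPM in S7_2, S7_3 and S7_4. UPK1A had a log2 fold change of -4.45 in S9 against S6 (SE 1.33) and was not called by edgeR's quasi-likelihood test (adjusted p = 0.0588). The value ran from -5.52 without S9_1 to -3.89 without S9_2. UPK1A was called in 4 of 20 alternatives and not in the other 16. It was called without S7_2 (edgeR adjusted p = 0.0372) and with the S6 and S9 libraries alone (edgeR adjusted p = 0.0412). The same held on log2(FPKM + 0.1) (limma adjusted p = 0.0395) and by DESeq2 (adjusted p = 0.00226). In the 6 libraries with high ATP6 it was not called (edgeR adjusted p = 0.222). The gene passed the filter only through S6, where it is high, so nothing is read from these calls or from the separation.

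UPK1B had its highest group mean in S9. It was at 5.82, 1.94 and 1.23 CPM in S6, at 6.41, 2.37 and 9.48 CPM in S7, and at 22.4, 13.7 and 6.01 CPM in S9, in the order of the library numbers. The lowest S9 library, S9_4, lay just above the highest S6 library, and S7 overlapped both groups. The log2 fold change of S9 against S6 was 2.22 (SE 0.74, edgeR adjusted p = 0.0787), and UPK1B was not called. Without S6_2 it was 3.15 (edgeR adjusted p = 0.0378), and without S9_1 it was 1.73 (edgeR adjusted p = 0.239). The mesothelium, the lining of body cavities, also makes UPK1B and UPK3B. Of 8 mesothelial markers 7 had a row, and they summed to 4.37 to 5.09 CPM in S6, 6.02 to 10.8 CPM in S7 and 3.26 to 9.40 CPM in S9. WT1, LRRN4 and CALB2 among them had 5, 8 and 15 counts over all libraries, and MSLN lay between 0.0560 and 0.893 FPKM. CLDN15 was at 0.731, 1.15 and 1.39 CPM in S6 and at 3.07, 2.27 and 3.10 CPM in S9, also without overlap and with S9 higher, and BNC1 was lower in all S9 than in all S6 libraries. PRG4 overlapped, and none of the 4 tested markers was called. Their part in the UPK1B values was not tested.

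The pairing partners gave other values. UPK2, the partner of UPK1A, was at 2.22, 0.787 and 2.76 CPM in S6, at 1.42, 1.17 and 1.63 CPM in S7 and at 1.40, 2.55 and 3.65 CPM in S9. All 3 groups overlapped, with a log2 fold change of 0.40 in S9 against S6 (SE 0.54, edgeR adjusted p = 0.66). UPK3A, a partner of UPK1B, was at 1.002, 2.88 and 0.429 CPM in S6, at 0.164, 0.117 and 1.12 CPM in S7, and at 0.0265, 0 and 0.344 CPM in S9. All S9 libraries lay below all S6 libraries, with 14 counts against 148. Its log2 fold change was -3.50 (SE 1.45, edgeR adjusted p = 0.137), and UPK3A was not called. The value was -2.49 without S6_3, its highest library, -6.40 without S9_4 (edgeR adjusted p = 0.0572) and -6.85 in the 6 libraries of the high ATP6 class (edgeR adjusted p = 0.0834). S9_1 and S9_2 held 1 and 0 counts, so the size of these values depends on the floor. UPK3A passed the filter only through S6, where it is high, so its values are a description and nothing is read from its separation.

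UPK3B had 3 counts in S7_4, 1 count in S9_4 and none elsewhere. A count of 0 allows up to 3 counts, or 0.0814 to 0.0854 CPM before scaling depending on the library, and this limit covers counting error only. No difference between the groups was detectable for UPK3B at this depth.

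**Figure D1:**
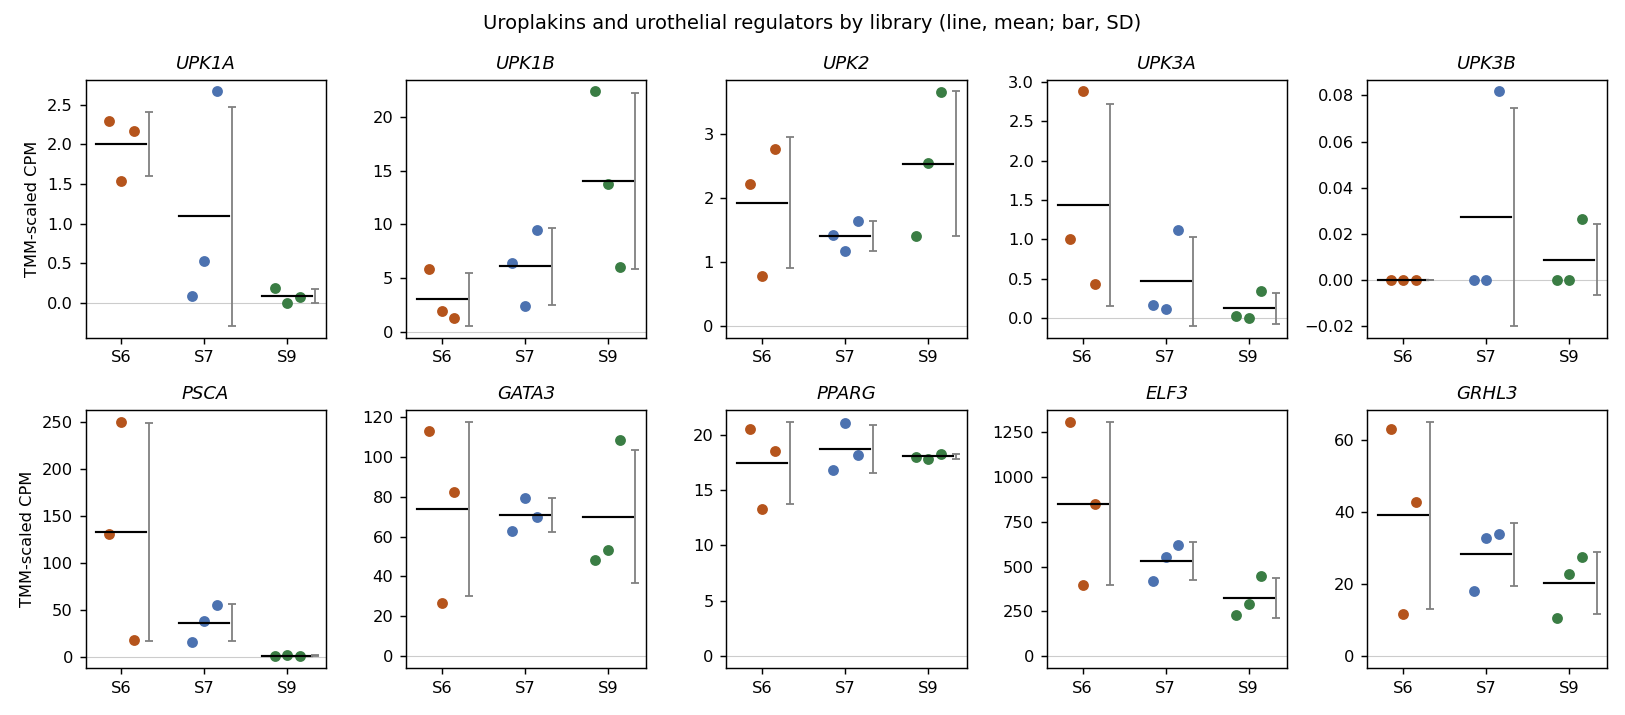
TMM-scaled CPM of the 10 genes in each of the 9 libraries, 1 panel per gene with its own linear axis. Points are libraries in the order of their numbers, black lines group means and grey bars the SD. All 3 S9 libraries of UPK1A, UPK3A and PSCA lie below all 3 of S6, and those of UPK1B above them, while PPARG hardly varies. UPK1A and UPK3A passed the filter only through S6, where they are high, so nothing is read from their separation.

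The sum of the uroplakin transcripts overlapped between S9 and S6, and its make-up is given as a description. Summed over the 5 uroplakins, the level was 7.53, 5.23 and 6.40 FPKM in S6, 3.904, 2.61 and 8.25 FPKM in S7 and 8.67, 7.24 and 7.37 FPKM in S9. The share of UPK1A in this sum was 25.6%, 23.0% and 28.8% in S6_2, S6_3 and S6_4, against 1.84%, 0% and 0.940% in S9_1, S9_2 and S9_4. The share of UPK1B was 21.9%, 9.78% and 5.53% in S6, and 75.3%, 53.0% and 24.1% in S9. Both shares were apart between S9 and S6, but shares of the same sum are not independent of each other. That of UPK1A rests on 10 counts in S9. UPK1A passed the filter only through S6, where it is high, so nothing is read from its separation. UPK1A exceeded UPK1B in all S6 libraries, with a ratio of 1.17 to 5.20, while in S9 the ratio was 0.0391 or less. In S7 it ran from 0.0377 to 0.832. S6_3 drew 48.2% of its sum from UPK3A, against 12.5% in S6_2 and 6.39% in S6_4. These shares were not tested.

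**Figure D2:**
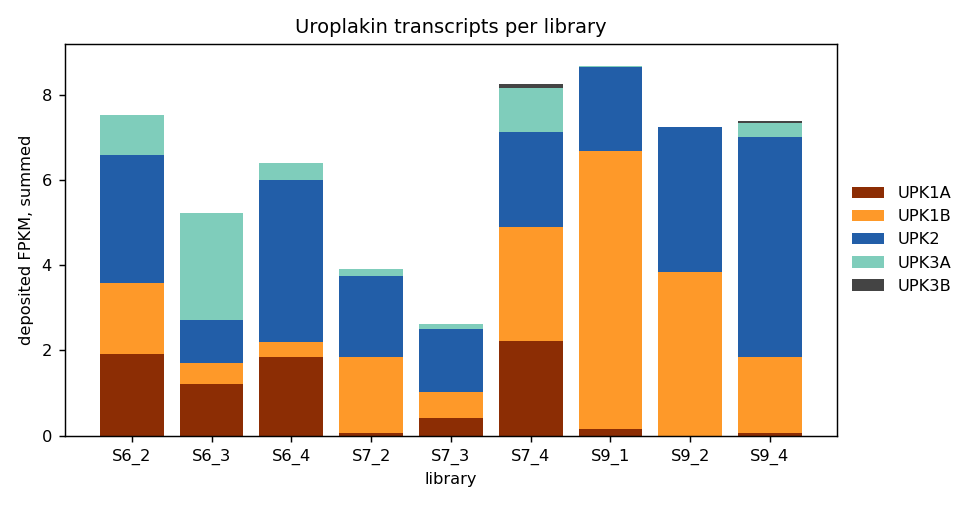
Deposited FPKM of the 5 uroplakins stacked for each library, on a linear axis from 0. UPK1A forms 23.0% to 28.8% of the stack in the S6 libraries and at most 1.84% in the S9 libraries, where UPK1B and UPK2 make up nearly all of it.

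PSCA was the 1 gene of the group that was called, and it fell in S9 against S6. It was at 130.4, 249.9 and 17.4 CPM in S6, at 15.6, 37.7 and 54.9 CPM in S7, and at 0.847, 2.05 and 0.794 CPM in S9. Every S9 library lay below every library of the other groups, by at least the span from 2.05 to 15.6 CPM, while S7 overlapped S6 because of the low S6_4. The counts behind this were 13716 in S6, 3876 in S7 and 137 in S9. The log2 fold change of S9 against S6 was -6.75 (SE 1.05, edgeR adjusted p = 0.0164), a 108-fold difference. It was -6.53 without S9_1, -7.33 without S9_2 and -7.03 in the 6 libraries of the high ATP6 class, and PSCA was then not called (edgeR adjusted p = 0.088, 0.0685 and 0.0584). With the replicate number as a block it was -5.95 (edgeR adjusted p = 0.107). Over all alternatives the adjusted p ran from 3.29e-16 by DESeq2 to 0.107, and no alternative turned the direction. Without S6_3, the highest library, the log2 fold change was -5.89 (edgeR adjusted p = 0.0257).

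Neutrophil genes as a sum were lowest in S9, as PSCA was. Their 6 markers summed to between 8306 CPM in S6_4 and 15740 CPM in S6_3, to 2912 to 6520 CPM in S7 and to 434.5 to 757.7 CPM in S9. S100A12, S100A9 and S100A8 made up most of these sums, with 7643, 3533 and 1530 CPM in S6_2. CXCR2 and CSF3R were at 8.94 and 3.82 CPM there. In S7 the sum was highest in S7_3 and PSCA in S7_4. All 5 tested markers were called lower in S9 than in S6, against 6.34% of all tested genes, and MPO had 4 counts in all. Their part in the PSCA result was not tested. The 8 macrophage markers summed to 586.7 to 1446 CPM in S6, 312.6 to 455 CPM in S7 and 241 to 424 CPM in S9. Of the 8 markers 3 were called lower in S9 than in S6, against the same 6.34%. Prostate and gland markers, of tissue that can make PSCA, summed to 151.7 to 336.5 CPM in S6 and 105.6 to 213 CPM in S9, so the ranges overlapped, and none of 6 tested was called. TMPRSS2, a protease, had a median of 86.3 FPKM and HOXB13, a factor of prostate epithelium, 0.810 FPKM, and MSMB had no counts. The kallikrein KLK11 was at 16.7, 26.5 and 30.3 CPM in S6 and at 2.01, 0.329 and 4.37 CPM in S9, without overlap and with S9 lower (edgeR adjusted p = 0.0591), while AZGP1 was apart with S9 higher (edgeR adjusted p = 0.0533). The part of these cells in the PSCA result was not tested.

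ELF3 stood highest in S6 and lowest in S9 by group mean. It was at 1310, 399 and 848 CPM in S6, at 418, 556 and 621 CPM in S7 and at 229.6, 292 and 447 CPM in S9. The low S6_3 lay within the range of S9, so the groups overlapped. Its log2 fold change in S9 against S6 was -1.40 (SE 0.42, edgeR adjusted p = 0.0589), and ELF3 was not called. Without S6_3 the value was -1.73 (edgeR adjusted p = 0.0294), and ELF3 was called, while without S6_2 it was -0.95 (edgeR adjusted p = 0.133).

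GRHL3 varied in a similar order without reaching the threshold. It was at 63.3, 11.7 and 42.8 CPM in S6, at 18.1, 32.9 and 33.9 CPM in S7 and at 10.7, 22.9 and 27.5 CPM in S9. S6_2 and S6_4 lay above all S9 libraries, and S6_3 lay within their range. For S9 against S6 the log2 fold change was -0.95 (SE 0.57, edgeR adjusted p = 0.293). Stratified squamous epithelium, which also uses GRHL3, had 12 of 15 markers in the table, and these summed to 679.6 to 1171 CPM in S6, 721.8 to 1438 CPM in S7 and 413 to 1484 CPM in S9. KRT4 made up most of these sums, with 1110 of 1171 CPM in S6_2. KRT10 had a median of 28.3 FPKM, FLG had 0 counts, and CRNN and SPRR3 had 40 and 18 counts in all. IVL was at 3.68, 2.82 and 3.59 CPM in S6 and at 4.16, 5.37 and 10.4 CPM in S9, without overlap and with S9 higher. CNFN, with 106 counts in all, was also apart, but with S9 lower. Of the 8 tested markers 6 had a negative log2 fold change in S9 against S6 and 2 a positive one (median -0.5). None of these 8 markers was called. Their part in the GRHL3 values was not tested.

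GATA3 had nearly equal group means, at 73.9 ± 43.8 CPM in S6, 70.6 ± 8.48 CPM in S7 and 70.02 ± 33.3 CPM in S9 (SD, n = 3 each). Single libraries differed far more, from 26.6 CPM in S6_3 to 112.8 CPM in S6_2 within 1 group. Its log2 fold change in S9 against S6 was -0.078 (SE 0.48, edgeR adjusted p = 0.934), and its sign turned in 7 of 20 alternatives. GATA3 is also a factor of T cells. The 13 lymphoid markers summed to 98.7, 366.6 and 199 CPM in S6, to 96.0, 51.9 and 76.4 CPM in S7 and to 34.4, 45.1 and 78.0 CPM in S9. Of the 13 markers 6 were called lower in S9 than in S6, against 6.34% of all tested genes. GATA3 and the lymphoid sum ran in opposite order over the S6 libraries and over the S7 libraries, and in the same order over those of S9. Their part in the GATA3 values was not tested.

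PPARG was the steadiest of the 9 tested genes. It was at 20.5, 13.3 and 18.5 CPM in S6, at 16.8, 21.1 and 18.2 CPM in S7, and at 18.0, 17.8 and 18.2 CPM in S9, and its highest library exceeded its lowest 1.59-fold, against 314.7-fold for PSCA. For S9 against S6 the log2 fold change was 0.047 (SE 0.19, edgeR adjusted p = 0.898). PPARG is also the master factor of fat cells. The adipocyte hormone ADIPOQ lay between 41.8 and 120.9 FPKM, while LEP and CIDEC had 4 counts and 1 count in all. The 9 adipocyte markers in the table summed to 463.6 to 524.7 CPM in S6, 442.8 to 571.2 CPM in S7 and 277.9 to 490.7 CPM in S9. Of the 7 tested, 2 were called higher and 1 lower in S9 than in S6, against 6.02% and 6.34% of all tested genes. Their part in the PPARG values was not tested.

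In S9 against S6, 1 of 9 tested genes of the group was called, PSCA, against 12.4% of the 17102 genes tested, of which 6.34% were lower and 6.02% higher. The groups did not overlap for PSCA, with S9 lower, and UPK1B, with S9 higher. Over all tested genes the groups were apart for 35.5%, with S9 higher for 18.6% and lower for 17%. UPK1A and UPK3A were apart as well, but they passed the filter only through S6, where they are high, so their separation is given as a description and nothing is read from it. DESeq2 called 5 of the 9, namely ELF3, PSCA, UPK1A, UPK1B and UPK3A, but also 4112 of the 17102 genes, against 2115 by edgeR.

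S7 and S6 overlapped for all 9 genes, where 21.2% of all tested genes did not overlap. By edgeR none was called, against 0.111% of all genes, and only PSCA had an unadjusted p below 0.05 (log2 fold change -1.88, SE 0.82, edgeR adjusted p = 0.289). DESeq2 called no member among its 1417 genes, and limma none among 52 or 37, depending on the pseudocount. Over all genes 2928 had an unadjusted p below 0.05. The log2 fold change was -0.87 for UPK1A, 1.02 for UPK1B, -0.45 for UPK2 and -1.61 for UPK3A, with SEs between 0.54 and 1.32. For the factors it was -0.68 for ELF3, -0.47 for GRHL3, -0.066 for GATA3 and 0.098 for PPARG.

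In S9 against S7 the groups were apart for PSCA alone of the 9 genes, with S9 lower, against 17.2% of all tested genes in either direction and 8.81% with S9 lower. Its log2 fold change was -4.87 (SE 0.97, edgeR adjusted p = 0.538). By edgeR no gene of the group was called, and 0% of all genes were, while UPK1A and PSCA had an unadjusted p below 0.05, as did 1575 genes in all. DESeq2 called 123 genes, of which PSCA was the 1 member. UPK1A had a log2 fold change of -3.57 (SE 1.29; -1.72 without S7_4), UPK3A of -1.88 (SE 1.40; -0.17 without S7_4), UPK1B of 1.204 (SE 0.72) and UPK2 of 0.85 (SE 0.54). The factors lay between -0.72 for ELF3 and -0.012 for GATA3. Since S7 shares in 2 of the comparisons, and S6 and S9 likewise, the 3 sets of values are not independent of each other. In the test of any difference among the 3 groups PSCA was called (edgeR adjusted p = 0.0382) and no other member was, against 2.43% of all genes.

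**Figure D3:**
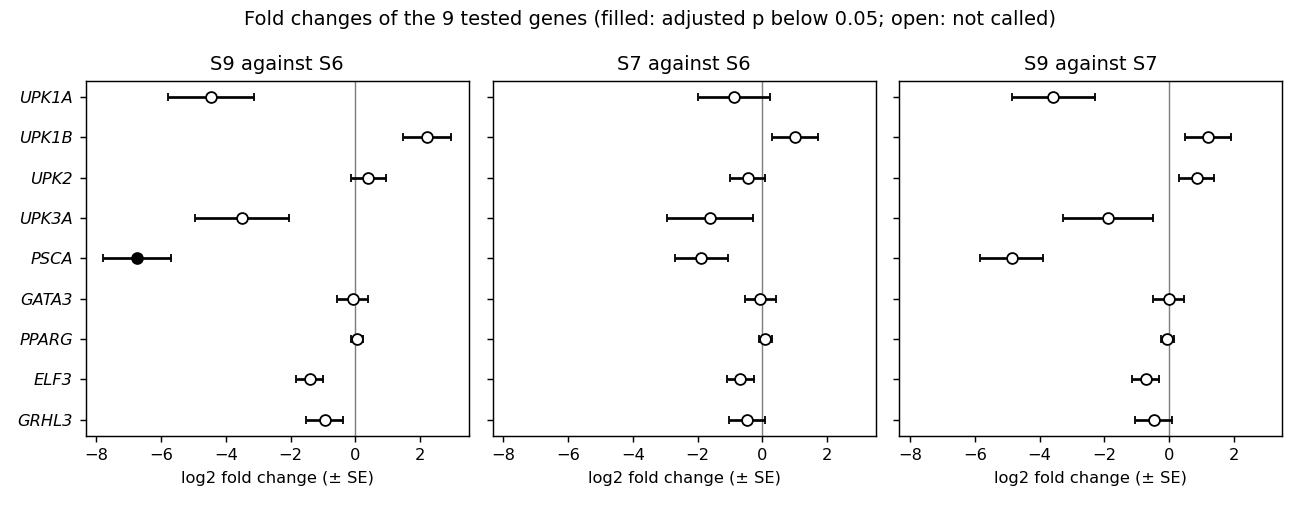
Log2 fold change with its standard error for the 9 tested genes in the 3 comparisons, from the edgeR fit of all 9 libraries. PSCA in S9 against S6, at -6.75, is the only filled point, and UPK1B, at 2.22, is open. UPK1A and UPK3A passed the filter only through S6, so nothing is read from their points in S9 against S6.

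The share of epithelium also differed between libraries. The 15 pan-epithelial genes summed to 1756 to 4567 CPM in S6, 2358 to 2936 CPM in S7 and 1631 to 2788 CPM in S9. All 15 had a negative log2 fold change in S9 against S6. Only S100A14 among them was called, against 6.34% of all tested genes called lower. When the libraries were scaled to the summed counts of these genes in place of TMM, the median of all tested genes moved to 0.56 in S9 against S6. Under this scaling UPK1B was called higher (log2 fold change 3.14, which is 2.58 above that median, SE 0.75, edgeR adjusted p = 0.024), PSCA stayed called lower (-6.50, edgeR adjusted p = 0.0399), and 5.7% of all genes were called.

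Relative to epithelial genes, S9 lay above S6 without overlap for UPK1B, UPK2 and GATA3, and below it for PSCA, ELF3 and UPK1A, the last of which passed the filter only through S6. Over all tested genes 20.1% were apart in either direction, and the share in each direction was not counted. The scaling itself moved the median of all tested genes to 0.56, which favours S9 above S6 for any gene. UPK1B stood at 0.127, 0.110 and 0.0297 counts per 100 epithelial counts in S6, and at 1.37, 0.767 and 0.216 in S9. UPK2 stood at 0.0486, 0.0448 and 0.0665 in S6, at 0.0602, 0.0475 and 0.0556 in S7 and at 0.0860, 0.142 and 0.131 in S9. It was not called in S9 against S6 (log2 fold change 1.16, which is 0.60 above the median of all genes, edgeR adjusted p = 0.303). ELF3 stood at 28.7, 22.7 and 20.4 in S6, at 17.7, 22.6 and 21.1 in S7 and at 14.1, 16.3 and 16.0 in S9. Here S6_3 no longer fell among the S9 libraries, and ELF3 was not called (-0.63, or -1.19 relative to the median of all genes, edgeR adjusted p = 0.399).

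GATA3 stood at 2.47, 1.51 and 1.98 counts per 100 epithelial counts in S6 and at 2.96, 2.98 and 3.89 in S9, also without overlap, with a log2 fold change of 0.72 that is 0.16 above the median of all genes (edgeR adjusted p = 0.284). GRHL3 had a log2 fold change of -0.076 under this scaling, 0.64 below the median of all genes, and its groups overlapped. UPK3A overlapped as well, because S9_4 lay above S6_4.

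**Figure D4:**
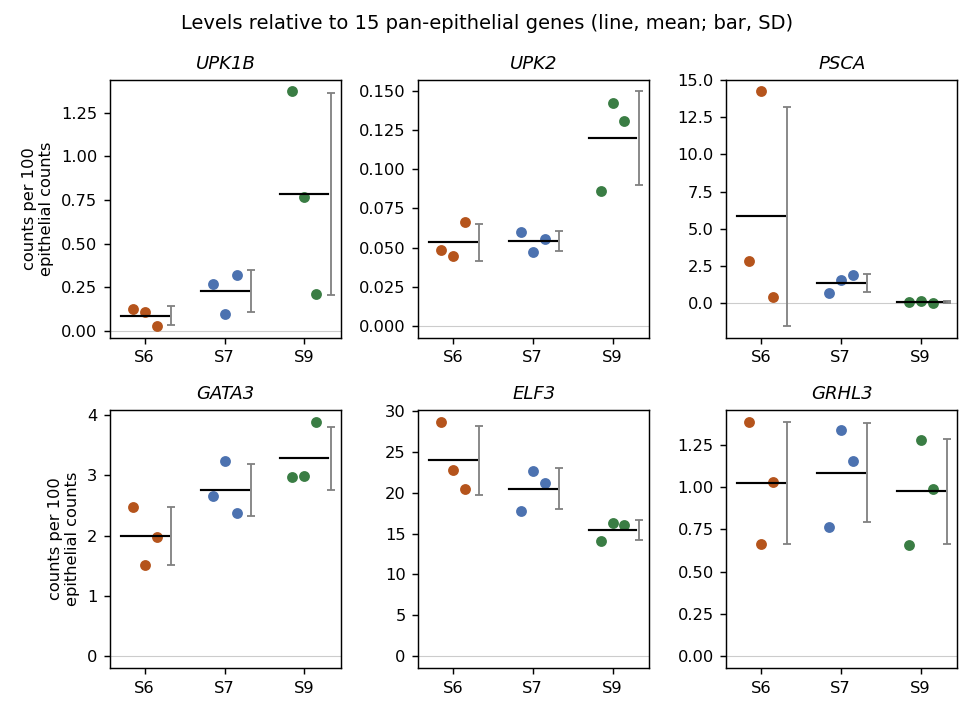
Counts of 6 genes per 100 counts of the 15 pan-epithelial genes in each library, with group means (black lines) and SD (grey bars) on linear axes. The S9 libraries lie above all S6 libraries for UPK1B, UPK2 and GATA3 and below them for PSCA and ELF3, while GRHL3 overlaps. Under this scaling the median log2 fold change of all tested genes was 0.56 in S9 against S6, and that of GATA3 was 0.72.

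Genes around the uroplakins were read in lists. Of 16 genes of uroplakin vesicle traffic and the apical membrane, all tested, 3 were called lower and 1 higher in S9 against S6 (median -0.41, against -0.011 over all tested genes). Lower were VAMP8, a vesicle fusion protein (133 ± 26.3 against 230.7 ± 28.9 CPM), and the small GTPases RAB11A (86.2 ± 11.97 against 145.6 ± 24.7 CPM) and RAB13 (87.8 ± 6.68 against 151.7 ± 21.6 CPM), and higher was STX2, a membrane fusion protein (81.4 ± 6.65 against 45.5 ± 13.3 CPM). Of the 15 keratins and other urothelial structural genes 11 were tested (median -0.24), and KRT18 rose (163 ± 23.5 against 89.6 ± 25.2 CPM, edgeR adjusted p = 0.0401), while the channel TRPV4 (log2 fold change -1.13) and KRT7 (-0.91) were not called. Both shares are read against the 12.4% of all genes called. In S7 against S6 none of these genes was called, with the smallest p in KRT18 (0.93), SLC14A1 (1.10) and SNX31 (1.72) and in STX2 (0.98), VAMP8 (-0.53) and MYO5B (-0.83). In S9 against S7 none was called either, with TRPV4 (-1.02), KRT8 (-0.66) and KRT17 (-1.52) and RAB13 (-0.67), RAB11A (-0.45) and SNAP23 (-0.26) first.

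Of 30 other factors and signals of urothelial identity, 29 were tested (median 0.048 in S9 against S6). Of these, 1 was called, against 12.4% of all tested genes. NOTCH1, a receptor that directs epithelial differentiation, was at 79.8 ± 12.6 against 37.8 ± 7.44 CPM (edgeR adjusted p = 0.0304). The interferon factor IRF1 (log2 fold change -1.01, edgeR adjusted p = 0.0502) and the epithelial factor OVOL2 (-1.18, edgeR adjusted p = 0.0649) were not called. In S7 against S6 the 3 with the smallest p were NOTCH1 (0.69), OVOL2 (-0.85) and IRF1 (-0.62), and in S9 against S7 they were BMP4 (0.61), NR1D1 (1.08) and NOTCH1 (0.39), none called.

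Among PPARG partners and targets 14 of 16 were tested (median -0.46 in S9 against S6). Of these, 2 were called lower and 1 higher, against 6.34% and 6.02% of all tested genes. CD36, a fatty acid receptor, fell (1.54 ± 0.146 against 9.34 ± 4.83 CPM), as did the fatty acid binding protein FABP5 (8.37 ± 3.37 against 60.8 ± 41.9 CPM), and HPGD, which breaks down prostaglandins, rose (9.33 ± 3.04 against 3.77 ± 0.360 CPM). CD36 is also a gene of macrophages, whose markers were lower in S9 as given above, and their part here was not tested. In S7 against S6 HPGD (1.13), FABP5 (-1.36) and PLIN2 (-0.38) had the smallest p, and in S9 against S7 CD36 (-2.12), FABP5 (-1.50) and FABP4 (-1.28), none called.

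Among the Ly6 relatives of PSCA the called genes lay in the other direction. Of 10 such genes 8 were tested, and 3 were called in S9 against S6, all higher, against 6.02% of all tested genes. They were CD59, which shields cells from complement (96.8 ± 15.8 against 41.8 ± 9.74 CPM), LYNX1 (55.6 ± 4.11 against 29.5 ± 1.32 CPM) and LYPD6 (5.36 ± 0.177 against 1.79 ± 0.694 CPM). The other 5 were negative and not called, and the median of the 8 was -1.39. In S7 against S6 LYNX1 (0.86), CD59 (0.82) and LYPD6 (1.09) had the smallest p, and in S9 against S7 PLAUR (-1.98), LY6D (-3.90) and SLURP1 (-1.95), none called.

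The genes of the group were also compared by pattern. The measure was the root mean square difference of log2 CPM over the 9 libraries after centring each gene. A small value means a like pattern or genes that hardly vary, and a large value can come from the spread of a single gene. The SD of log2 CPM was 2.14 for UPK1A, 0.67 for UPK2 and 0.19 for PPARG. Among members, ELF3 and GRHL3 were closest (0.370), then GATA3 and GRHL3 (0.450) and UPK2 and GATA3 (0.462). UPK1A was closest to UPK3A (1.26), but both passed the filter only through S6, so nothing is read from this. From its pairing partner UPK2 it differed by 2.26, near its median difference of 2.05 from all named genes. UPK1B and UPK3A differed by 2.67, and UPK1B and PSCA, at 3.73, were the farthest pair of the 36.

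Over 13738 other named genes, those nearest to ELF3 were LIPH (0.15), PLS1 (0.165) and MYO5B (0.197), and those nearest to GRHL3 were MUC1 and SCNN1A (0.286 each) and CLDN4 (0.294). GATA3 was nearest to CGN (0.156), DSG2 (0.157) and SLC22A23 (0.177), PPARG to TMEM33, KDM5B and JDP2 (0.0625 to 0.0756), and UPK2 to AMPD3, PARD6B and ZDHHC4 (0.206 to 0.268). MUC1, a cell surface mucin, CGN, a tight junction protein, and DSG2, a desmosomal cadherin, are epithelial genes, and all 3 were lowest in S6_3 within their group.

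UPK1B was nearest to SLC1A6 (0.347), LEPR (0.418) and CUNH14orf132 (0.419). LEPR, the leptin receptor, ran from 8.74 CPM in S6_4 to 80.3 CPM in S9_1, the same libraries in which UPK1B was lowest and highest. PSCA was nearest to S100A9 (0.954), S100A8 (0.964) and MMP1 (1.11), of which the first 2 are in the neutrophil list. UPK1A was nearest to IL1RN (0.884), DEFB113 (0.891) and TMPRSS11D (0.894). IL1RN, the interleukin-1 receptor antagonist, lay between 166 and 314 CPM in S6 and between 8.89 and 30.7 CPM in S9. UPK3A was nearest to CLCA1 (0.702), DPPA3 (0.794) and GIMAP5 (0.864), of which CLCA1 and DPPA3 stayed at or below 1.21 CPM. For comparison, the median difference from all named genes was 1.32 for UPK1B, 2.87 for PSCA, 2.05 for UPK1A and 1.81 for UPK3A.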

How the data were processed

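Polyadenylated RNA of rabbit urethral tissue was column-purified, and libraries were built by template switching, per the labels' protocols. The deposited counts are whole, unnormalized reads per gene, and the deposited FPKM hold the same reads per gene length and column total. fastp, HISAT2 and HTSeq are named without version or role in the submitters' processing notes. Build and strand setting: not given in the sources used here. Therefore no coordinates or sequences are printed. Rows with a LOC number took a symbol from the RefSeq table (assembly mOryCun1.1) for 515 of 12867, and 9 of the 10 members have their symbol in that table.

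Genes were filtered by filterByExpr (minimum count 10, total 15), which left 17102, scaled by TMM and fitted in 1 model of 3 groups with edgeR 4.0.16 (R 4.3.3; robust quasi-likelihood, 6 residual degrees of freedom). P-values were adjusted by Benjamini-Hochberg over all tested genes, with 0.05 as threshold. The method was run on simulated counts, drawn for each gene on its own around its mean over the libraries, with changes set in S9 only. These had no ATP6 split, gene length shift or difference in epithelial share, so they cannot show how calls respond to them. Each SE is the absolute log2 fold change over the square root of F. DESeq2 1.42.0 and limma 3.58.1 served as alternatives. Members and lists were chosen with earlier results of these data known. Named genes are the members, the 3 smallest p of each list per comparison, and the 3 nearest patterns per member. Marker genes named with a level, and the nearest genes described by level, were picked after their values were seen.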

Additional observations from a re-analysis of the deposited data

How the results depend on the processing

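Groups of 3 libraries and low uroplakin counts limit every statement here. Over 20 alternatives 491 of 538 fold changes of single members kept their direction and side of the threshold. Only PSCA in S9 against S6 was called in the main fit, so for the others staying uncalled was likely from the start. The pooled number therefore does not measure how firm the results are. PSCA in S9 against S6 kept its call in 16 of the 20 alternatives and lost it in 4. In S9 against S6 the number of members called was 1, but 2 when scaled to pan-epithelial genes or with a term for the mitochondrial class (UPK1B gained), 2 on log2(FPKM + 0.1) or with the 2 groups alone (UPK1A gained), 5 by DESeq2, 0 in the 6 libraries of the high ATP6 class, and 0 to 2 when each library was left out. Over all genes the count was 2115, against 0 without S9_1, 4 without S9_2, 7 in the 6 libraries and 4112 by DESeq2. In S9 against S7 the number called was 0, and 1 by DESeq2. For any difference among the 3 groups it was 1, but 0 when scaled to pan-epithelial genes, 0 without a filter, 0 in the 6 libraries, 4 by DESeq2 and 0 to 1 when each library was left out. Over all genes this last test called 415, against 221 with that scaling, 448 without a filter, 0 in the 6 libraries and 3305 by DESeq2. The cause of these shifts was not tested.

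With the replicate number as a block, the number called was 0 in S9 against S6 and 0 for any difference, where over all genes it called 16 and 2, against 2115 and 415 without the block. The numbers are not shown to pair the libraries: deviations from group means in libraries with the same number correlated at -0.0649 to 0.138 over genes, and not every library correlated best with its own number.

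Signs turned for UPK2, GATA3, PPARG and GRHL3, and none of these values was called in either sign. UPK2 in S7 against S6 was 0.027 when scaled to pan-epithelial genes and 0.019 in the 6 libraries. GATA3 in S9 against S6 was 0.72 when scaled to pan-epithelial genes, 0.094 on log2(FPKM + 1), 0.11 on log2(FPKM + 0.1) and -0.53 to 0.36 with libraries left out. GATA3 in S7 against S6 was 0.47, 0.12 and 0.15 in the same order, 0.11 with the replicate block and -0.46 to 0.38 with libraries left out, and in S9 against S7 it was 0.25 when scaled to pan-epithelial genes and -0.45 to 0.21 with libraries left out. PPARG in S9 against S7 was 0.33 when scaled to pan-epithelial genes, 0.022 and 0.025 by FPKM with a pseudocount of 1 and 0.1, 0.035 in the 6 libraries, 0.016 with a length correction and -0.12 to 0.053 with libraries left out. With libraries left out PPARG was -0.10 to 0.18 in S9 against S6 and -0.060 to 0.23 in S7 against S6, and GRHL3 in S7 against S6 was -0.90 to 0.056, and 0.080 when scaled to pan-epithelial genes.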
